A study of Komagataella phaffii GS115 with 3 samples.

Results

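The genes described here are 6 genes of formaldehyde assimilation, the xylulose monophosphate cycle, in the methylotrophic yeast Komagataella phaffii. They were chosen by locus tag out of the 5040 genes listed. They are the dihydroxyacetone synthases DAS1 (PAS_chr3_0832) and DAS2 (PAS_chr3_0834), the dihydroxyacetone kinase DAK2 (PAS_chr3_0841), and the methanol-linked isoforms FBA1-2 (PAS_chr1-1_0319), TAL1-2 (PAS_chr2-2_0337) and SHB17 (PAS_chr2-2_0177). The pairing of names with tags is that of the selection, since the deposited tables and the RefSeq gene table list tags alone. No pairing could thus be checked, and PAS_chr2-2_0337 is counted among the 6 throughout. RNA-seq was carried out on 1 library of strain GS115 treated with hydrogen peroxide (H2O2), 1 library of an hmt-deficient GS115 strain in regular culture and 1 library of untreated GS115 in regular culture. GS115 is a histidine auxotroph used as an expression host, and the labels name GS115 for all 3 cultures. Whether the hmt-deficient strain kept the auxotrophy is not stated. For the H2O2 dose and time, the medium and carbon source, and the gene that hmt stands for, the sources used here give nothing.

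In a methylotrophic yeast, methanol is oxidised to formaldehyde and H2O2 inside the peroxisome. Dihydroxyacetone synthase, a transketolase-like enzyme, moves part of xylulose monophosphate onto formaldehyde, which makes dihydroxyacetone and leaves glyceraldehyde phosphate. Dihydroxyacetone kinase phosphorylates the dihydroxyacetone. Aldolase, sedoheptulose bisphosphatase and transaldolase then rearrange the sugar phosphates so that xylulose monophosphate is formed again. The genes of this cycle are known for strong expression on methanol and repression on glucose.

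Levels are FPKM, fragment counts corrected for gene length and library depth, which the authors scaled for each library separately. The fragment totals recovered from the values were 22355499 for the H2O2-treated, 18281681 for the hmt-deficient and 15358132 for the untreated library. Each group being a single library, differences between conditions have neither a replicate check nor a test. Intervals in parentheses are exact 95% intervals from recovered fragments and cover counting error only. In bulk RNA, fewer cells with a transcript and less transcript per cell cannot be told apart.

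The members differed widely in level. DAS1 stood at 36.1 FPKM in the H2O2-treated, 107 in the hmt-deficient and 95.6 in the untreated library. DAS2 stood at 15.3, 119 and 107 FPKM in the same libraries. Both synthase genes were thus low with H2O2 and close to each other in the remaining cultures. In rank terms they were middling genes in untreated GS115, where 62.4% of all genes lay below DAS1 and 66.2% below DAS2. With H2O2 37.3% of genes lay below DAS1 and 12.2% below DAS2, and in the hmt-deficient library they ranked 1668 and 1510 from the top.

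DAK2, the kinase that acts on the product of both synthases, stood at 357 FPKM with H2O2, 1009 FPKM in the hmt-deficient library and 473 FPKM untreated. It was above the synthases everywhere, and the hmt-deficient library was the high one. FBA1-2, an aldolase isoform, was the lowest member in every library, at 11.5 FPKM with H2O2, 43.8 FPKM in the hmt-deficient library and 40.5 FPKM untreated. SHB17, which hydrolyses sedoheptulose bisphosphate and is also known from Saccharomyces cerevisiae, stood at 824 FPKM with H2O2, 290 FPKM in the hmt-deficient library and 261 FPKM untreated. PAS_chr2-2_0337, selected as the transaldolase TAL1-2, stood at 1572, 1016 and 1471 FPKM in these libraries. It was the highest member in each, although in the hmt-deficient library it did not differ from DAK2 beyond counting error (ratio 1.01, 0.989 to 1.025). All other neighbours in the order of levels differed beyond counting error within their library.

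**Figure D1:**
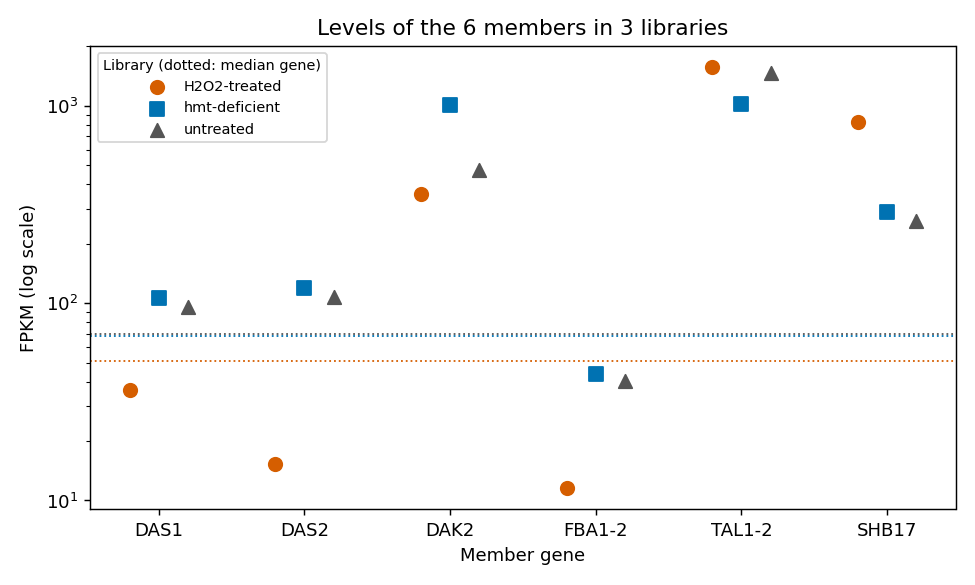
FPKM (log scale) of the 6 members in the H2O2-treated, hmt-deficient and untreated library, 1 point per library, with the median gene of each library dotted (51.1, 68.3 and 69.8 FPKM). DAS1, DAS2 and FBA1-2 are lowest in the H2O2-treated library, SHB17 is highest there, and DAK2 is highest in the hmt-deficient library.

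The first comparison asked how the cycle genes differed after GS115 was exposed to H2O2, itself a product of methanol oxidation. Both synthases and the aldolase isoform were lower with H2O2, SHB17 was higher, and DAK2 and PAS_chr2-2_0337 were near their untreated levels. All 6 members reached 10 FPKM in every library, the minimum asked of at least 1 library of a pair, so none was kept through a single high library. Of the 6, 3 were at least 2-fold lower and 1 at least 2-fold higher, where 25.8% and 8.88% of 4964 genes were lower and higher. The 2-fold threshold was applied to the log2 ratio of FPKM plus 1, which understates differences of low genes. The median log2 ratio of the members was -0.89, against -0.38 for all genes.

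DAS2 was the member furthest below untreated, 6.99-fold lower with H2O2 (6.45 to 7.59), and 166 of the 4964 genes had a lower ratio. FBA1-2 was 3.51-fold lower (3.05 to 4.04). DAS1 was 2.65-fold lower (2.49 to 2.81), a log2 ratio of -1.38. The split of fragments between the synthase genes is uncertain, as set out below. DAS1 and DAS2 summed to 51.45 FPKM with H2O2 and 203 FPKM untreated. Because the ratios of all genes were shifted downward, the log2 ratio relative to the median gene was -0.995 for DAS1, just short of 2-fold. Relative to the median it was -2.34 for DAS2 and -1.34 for FBA1-2. On that scale 2 members were lower and 1 higher, where 15.0% and 15.5% of genes were lower and higher.

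SHB17 went the other way, 3.15-fold higher with H2O2 (3.03 to 3.28), and 194 of the 4964 genes had a higher ratio. Relative to the median gene its log2 ratio was 2.04. DAK2 was 1.33-fold lower (1.30 to 1.36), and its log2 ratio of -0.41 was -0.02 relative to the median gene. PAS_chr2-2_0337 was 1.07-fold higher (1.05 to 1.09), or 0.48 on the log2 scale relative to the median. The synthase and kinase genes, whose steps follow each other in the pathway, therefore had unlike ratios, as did the aldolase isoform and SHB17.

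The second comparison asked how the genes stood in the hmt-deficient strain in regular culture. DAK2 was higher than in untreated GS115, while DAS1, DAS2, FBA1-2 and SHB17 lay close to their untreated levels. Of the 6 members, 1 was at least 2-fold higher and 0 lower, where 11.1% of 4992 genes were higher and 11.0% lower. A share of 1 in 6 is near that background and is not a result about the members as a group. The median log2 ratio of the members was 0.15, against -0.07 for all genes.

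In the hmt-deficient library DAK2 exceeded its untreated level 2.13-fold (2.09 to 2.18), a log2 ratio of 1.09 that 468 of the 4992 genes exceeded. DAS1 was 1.11-fold higher (1.06 to 1.17), DAS2 1.11-fold (1.06 to 1.16) and SHB17 1.11-fold (1.06 to 1.16). These 3 ratios were alike within counting error. FBA1-2 was 1.08-fold higher, with an interval that includes no difference (0.980 to 1.20). PAS_chr2-2_0337 was 1.45-fold lower (1.42 to 1.48), a log2 ratio of -0.53. These ratios also depend on how the libraries were scaled. The normalized columns that the authors also deposited, an alternative chosen after seeing the data, gave FBA1-2 a log2 ratio of 0.30. That lies outside its counting interval. They gave 0.35 for DAS1, 0.34 for DAS2 and SHB17, 1.29 for DAK2 and -0.34 for PAS_chr2-2_0337.

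Set directly against each other, the hmt-deficient and H2O2-treated libraries differ in strain and treatment together, and this comparison shares both of its libraries with the comparisons above. Of the 6 members, 4 were at least 2-fold higher in the hmt-deficient library and 1 lower, where 23.0% and 6.50% of 4966 genes were higher and lower. DAS2 was 7.75-fold higher (7.16 to 8.39), and 100 of the 4966 genes had a higher ratio. FBA1-2 was 3.80-fold higher (3.32 to 4.36), DAS1 2.95-fold (2.79 to 3.12) and DAK2 2.83-fold (2.77 to 2.88). SHB17 was 2.84-fold lower (2.74 to 2.95), and 134 genes had a lower ratio. PAS_chr2-2_0337 was 1.55-fold lower (1.52 to 1.58). Relative to the median log2 ratio of 0.34, the counts were again 4 higher and 1 lower, where 14.0% and 12.2% of genes were higher and lower.

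**Figure D2:**
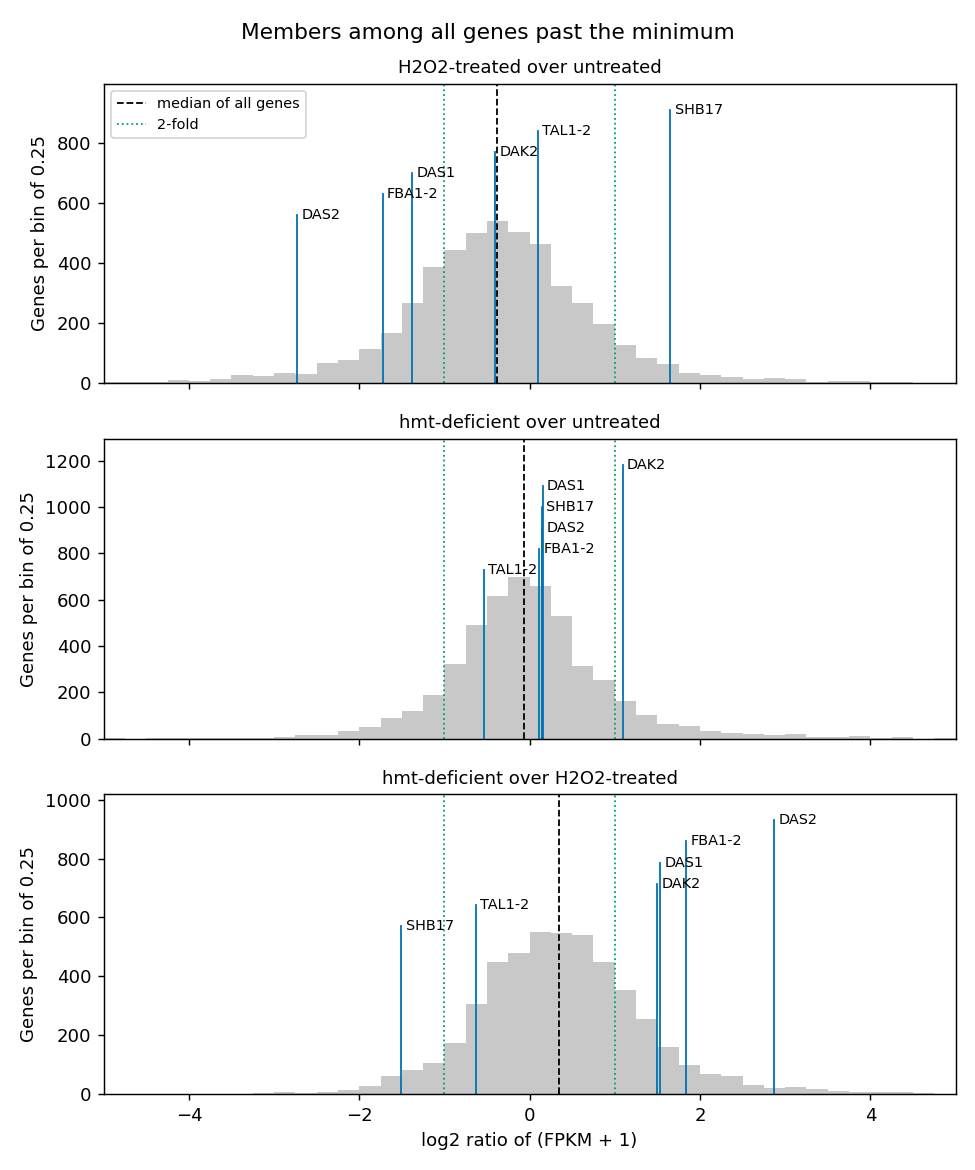
Number of genes per bin of log2 ratio of FPKM plus 1, in the 3 comparisons, with the members as labelled lines, the median of all genes dashed and 2-fold dotted; genes beyond 5 in either direction lie outside the axis. With H2O2 the members spread from -2.73 (DAS2) to 1.65 (SHB17). For hmt-deficient over untreated they lie between -0.53 (PAS_chr2-2_0337, labelled TAL1-2) and 1.09 (DAK2).

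Ratios between members within a library do not depend on how libraries were scaled against each other. They compare RNA levels of the cycle genes and do not give enzyme amounts or flux. DAS1 stood at 2.36 times the FPKM of DAS2 with H2O2 (2.16 to 2.58), at 0.898 times in the hmt-deficient library (0.861 to 0.937) and at 0.893 times untreated (0.851 to 0.938). DAS1 thus gave 70.2% of the fragments of the pair with H2O2, 47.3% in the hmt-deficient library and 47.2% untreated. The 2 genes have equal reference lengths (2124 bp), and their sequences were not at hand to compare. No source used here says how fragments that match both were counted, so the split between them is uncertain. Their sum was 51.45 FPKM with H2O2, 225 FPKM in the hmt-deficient library and 203 FPKM untreated.

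The kinase and the synthases did not keep a fixed proportion. DAK2 stood at 9.88 times DAS1 with H2O2 (9.39 to 10.4), 9.47 times in the hmt-deficient library (9.17 to 9.79) and 4.95 times untreated (4.76 to 5.15). DAK2 stood at 23.3 times DAS2 with H2O2 (21.6 to 25.1), 8.51 times in the hmt-deficient library (8.25 to 8.78) and 4.42 times untreated (4.26 to 4.59). Both ratios were higher in the H2O2-treated and hmt-deficient libraries than untreated. With H2O2 the synthases were low, and in the hmt-deficient library DAK2 was high. SHB17 stood at 71.4 times FBA1-2 with H2O2 (63.6 to 80.7), 6.61 times in the hmt-deficient library (6.14 to 7.12) and 6.46 times untreated (5.94 to 7.03). SHB17 over DAS1 was 22.8 with H2O2 (21.7 to 24.0), 2.72 in the hmt-deficient library (2.60 to 2.84) and 2.73 untreated (2.60 to 2.87). For both of these ratios the hmt-deficient and untreated intervals overlapped and the H2O2 value stood apart.

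**Figure D3:**
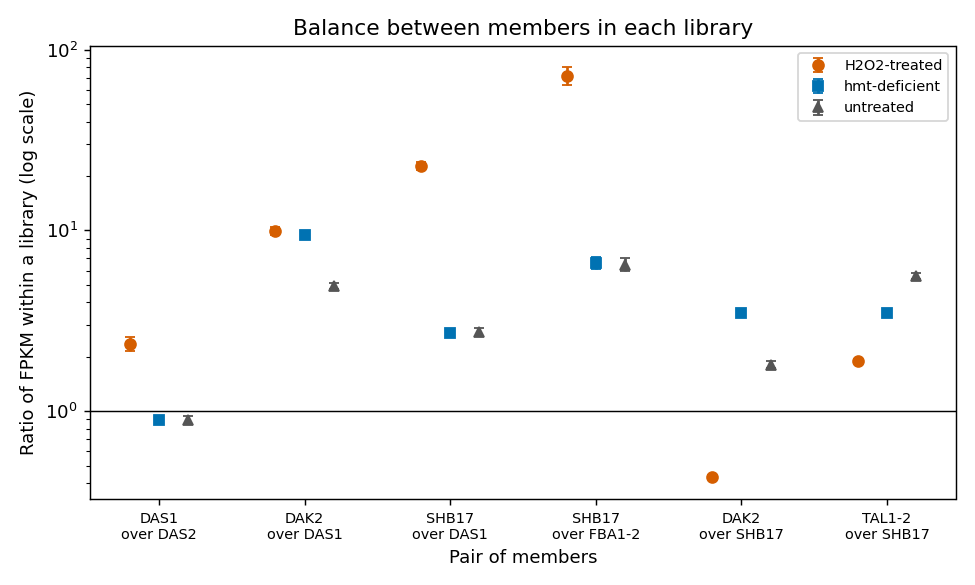
Ratio of FPKM between pairs of members within each library (log scale), with 95% counting intervals, for the H2O2-treated, hmt-deficient and untreated library. The intervals are exact except for SHB17 over FBA1-2, where they are approximate. SHB17 over FBA1-2 is 71.4 with H2O2, against 6.61 in the hmt-deficient and 6.46 in the untreated library, and DAS1 over DAS2 lies above 1 with H2O2 alone.

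The 3 isoforms named as methanol-linked were unlike each other, with FBA1-2 the lowest member and lower with H2O2, SHB17 higher with H2O2, and PAS_chr2-2_0337 near its untreated level. PAS_chr2-2_0337 lay above 97.3%, 96.7% and 97.6% of all genes in the H2O2-treated, hmt-deficient and untreated library, and its ratios stayed within 2-fold in the 3 comparisons. The listed gene next to it, PAS_chr2-2_0338, stood at 6.97 FPKM with H2O2, 49.5 FPKM in the hmt-deficient library and 45.9 FPKM untreated. It was singled out after its values were seen. Its log2 ratio was -2.56 with H2O2 and 0.11 in the hmt-deficient library, beside -2.73 and 0.15 for DAS2. PAS_chr2-2_0337 stood at 226 times its level with H2O2 (194 to 264), 20.5 times in the hmt-deficient library (19.2 to 21.9) and 32.0 times untreated (29.8 to 34.5). No table used here gives a product for either tag, so whether PAS_chr2-2_0337 is the methanol-linked transaldolase could not be checked.

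DAS1, DAS2 and DAK2 lie close together on chromosome 3, with 1 listed gene between the synthases. Places are counted over the listed genes alone, so unlisted genes may lie between. Within 5 places of these 3 members lie 16 other genes, of which 5 were at least 2-fold lower and 3 higher with H2O2, beside 25.8% and 8.88% of all genes. The share of lower genes is near that background. The listed genes next to DAS2 on either side were among the lower ones. PAS_chr3_0833, which lies between the synthases, stood at 9.57 FPKM with H2O2, 100.25 FPKM in the hmt-deficient library and 43.3 FPKM untreated. It was 4.53-fold lower with H2O2 (3.82 to 5.39). PAS_chr3_0836, on the far side of DAS2, stood at 2.21 FPKM with H2O2, 389 FPKM in the hmt-deficient library and 441 FPKM untreated. It was 199.7-fold lower with H2O2 (168 to 238), and 6 of the 4964 genes had a lower ratio. PAS_chr3_0840, beside DAK2, was 4.57-fold lower (4.16 to 5.02), at 14.4 FPKM with H2O2, 23.9 FPKM in the hmt-deficient library and 65.6 FPKM untreated. On the other side of DAK2, PAS_chr3_0842 was higher in the hmt-deficient library like DAK2 itself, 3.59-fold (3.50 to 3.68), at 1148 FPKM against 320 FPKM untreated, and with H2O2 it stood at 906 FPKM. The 3 higher with H2O2 were PAS_chr3_0842, PAS_chr3_0843 (log2 ratio 1.30) and PAS_chr3_0826, the last 2 named after their values were seen. PAS_chr3_0826, within 5 places of DAS1, was 16.2-fold higher, at 17695 FPKM with H2O2 and 1095 FPKM untreated. The files give these neighbours no name.

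The counts around the other members are to be read beside all genes, of which 25.8% were lower and 8.88% higher with H2O2 and 11.1% higher in the hmt-deficient strain. Around FBA1-2 on chromosome 1, 4 of 10 neighbours were at least 2-fold lower with H2O2 and 1 higher, and 0 passed 2-fold in the hmt-deficient strain. The 4 were PAS_chr1-1_0313, PAS_chr1-1_0314, PAS_chr1-1_0315 and PAS_chr1-1_0325, with log2 ratios of -1.01, -1.11, -1.99 and -1.97. Around PAS_chr2-2_0337 5 of 10 neighbours were lower with H2O2 and 1 higher. Around SHB17, also on chromosome 2, 1 of 10 was lower and 0 were higher with H2O2. On that scale SHB17 was the one gene of that stretch past 2-fold higher. Relative to the median gene, a listed gene next to SHB17 also passed 2-fold, at a log2 ratio of 1.24 beside 2.04 for SHB17. In the hmt-deficient strain 4 of these 10 were higher, while SHB17 was not. By the reference table, none of the 6 members overlaps another of the 5040 listed genes.

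**Figure D4:**
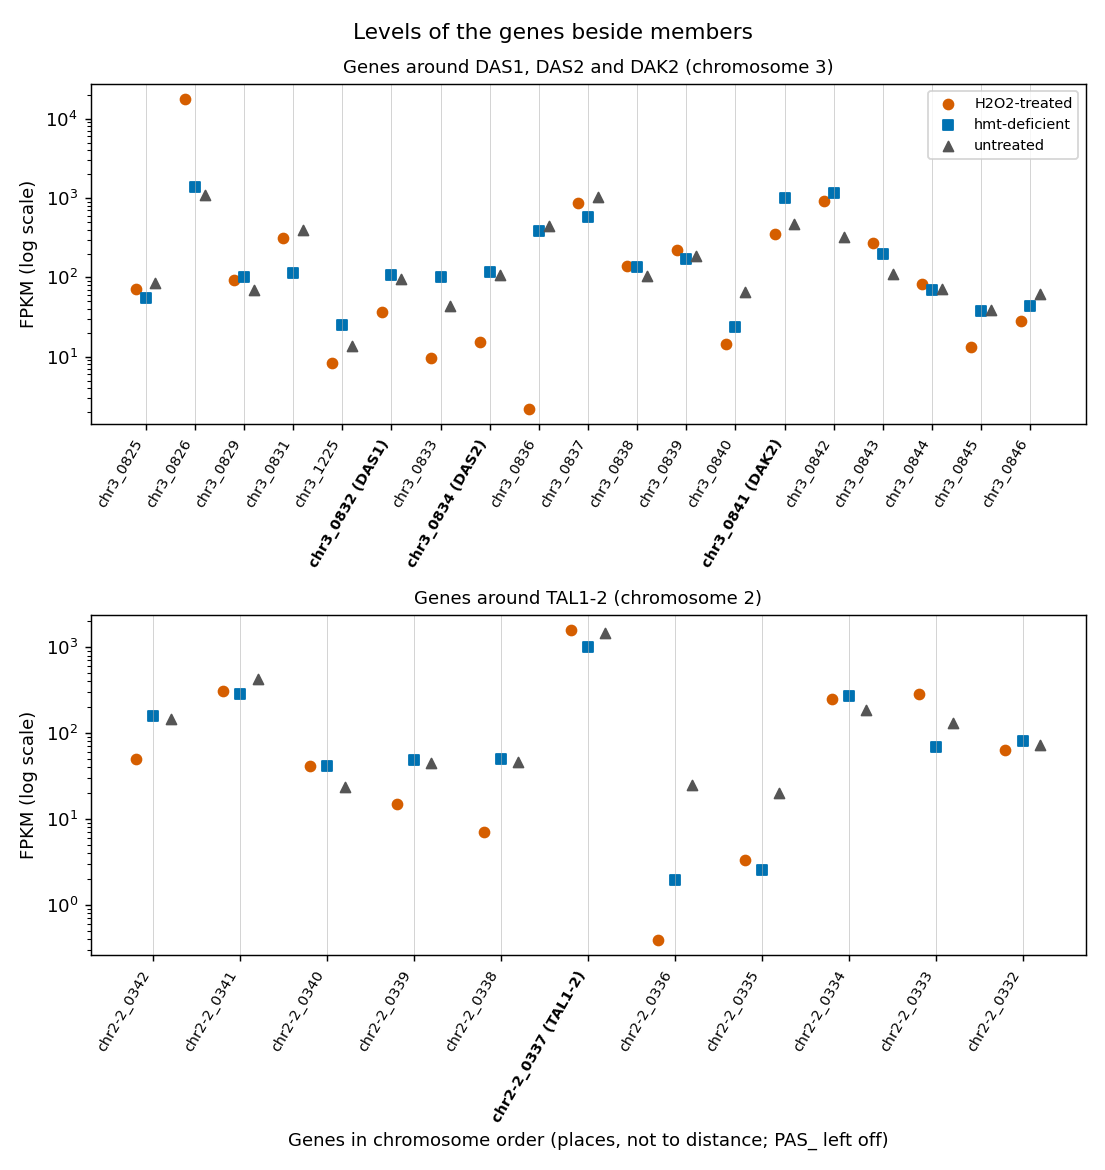
FPKM (log scale) of listed genes near members in chromosome order, 1 point each for the H2O2-treated, hmt-deficient and untreated library. The top shows genes within 5 places of DAS1, DAS2 and DAK2 on chromosome 3. The bottom shows those within 5 places of PAS_chr2-2_0337, labelled TAL1-2, on chromosome 2. PAS_chr3_0836 stands at 2.21 FPKM with H2O2, against 441 untreated, and PAS_chr2-2_0338 at 6.97, against 45.9. The lowest of the PAS_chr2-2_0337 values beside it is 1016 FPKM.

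A list of 6 further tags, taken from general knowledge of this yeast as methanol oxidation and formaldehyde dissimilation genes and not paired with names in the tables used, was set beside the members. All 6 were at least 2-fold lower with H2O2, as were 25.8% of all genes, with a median log2 ratio of -3.40 and a range of -7.12 to -1.73. In the hmt-deficient strain 1 of the 6 was higher and 1 lower than untreated, beside 11.1% and 11.0% of all genes (median -0.12, range -2.04 to 2.54). Against the H2O2-treated library all 6 were higher in the hmt-deficient strain, as were 23.0% of all genes (median 3.09). For the 6 members of the assimilation cycle the medians of these 3 comparisons were -0.89, 0.15 and 1.52. These medians include PAS_chr2-2_0337, whose identity could not be checked, at log2 ratios of 0.10, -0.53 and -0.63.

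The pattern of the members over the 3 libraries was described by log2 levels centred on each gene's mean. The median member stood at -0.80 with H2O2, 0.61 in the hmt-deficient library and 0.28 untreated. The 5 other genes nearest to it, by Euclidean distance over the 3 libraries, were PAS_chr2-2_0383, PAS_chr3_0094, PAS_chr4_0167, PAS_chr1-1_0139 and PAS_chr1-4_0660, at distances of 0.051 to 0.056. PAS_chr2-2_0383, the nearest, stood at 20.2 FPKM with H2O2, 54.3 FPKM in the hmt-deficient library and 43.6 FPKM untreated. The median pattern described few of the members themselves, whose distances from it ran from 0.22 for DAS1 to 2.31 for SHB17, and 151 genes lay nearer to it than DAS1. Between members, DAS1 and FBA1-2 were the closest pair, at 0.27, and DAS2 and SHB17 the furthest apart, at 3.58. With 3 libraries many genes share any such pattern, and 65 genes lay nearer to FBA1-2 than DAS1 did.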

How the data were processed

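The deposited values are FPKM per gene, per the file headers, for 3 libraries of rRNA-depleted total RNA made by a stranded protocol, per the labels' protocols. In the submitters' processing notes, HISAT2, featureCounts, HTSeq, Trimmomatic 0.39 and FastQC 0.12.1 are named, without roles. For genome build and annotation, nothing is given in the sources used here. Besides its own values, the file of the untreated library holds a copy of the H2O2-treated column. The authors also deposited normalized columns, which equal FPKM for the H2O2-treated library and are FPKM times 1.145 for the hmt-deficient one. They served as an alternative chosen after seeing the data.

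All 5040 tags matched the RefSeq gene table of assembly ASM2700v1, used for lengths and gene order alone. Places in that order count the listed tags alone. Its symbols repeat the tags, and it holds no product text or protein sequences, so planned lists by product and by protein similarity could not be made. Multiplying FPKM by length and a fitted fragment total gave whole numbers, within 0.1, for 15 of the 18 member values. The exceptions are the 3 values of FBA1-2, whose reference length (1106 bp) is not a multiple of 3. They missed a whole number by 0.33 (H2O2-treated), 0.22 (hmt-deficient) and 0.24 (untreated). Its intervals rest on rounded fragments and are approximate. Whether another length lies behind its deposited values was not tested. Over genes where rounding allowed the check, 94.5% of 292 (H2O2-treated), 94.7% of 457 (hmt-deficient) and 96.8% of 3557 (untreated) came out whole.

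Log2 ratios used a pseudocount of 1 FPKM and a minimum of 10 FPKM in 1 or both libraries of the pair. No p-value was computed, since each group holds 1 library. The calculation was tested on simulated data. Ratio intervals are exact, or approximate where FBA1-2 enters, and conditional on the summed fragments (Python 3.11.15, scipy 1.17.1). Genes named were the members, neighbours within 5 places that passed 2-fold against untreated GS115 in the direction of a member beside them, and the 5 nearest profiles. PAS_chr2-2_0338, PAS_chr3_0826 and PAS_chr3_0843 fall outside this rule and were named after their values were seen. Members, lists and thresholds were chosen with earlier results of these data known.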

Additional observations from a re-analysis of the deposited data

How the results depend on the processing

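Of 135 alternative log2 ratios of members, 0 changed sign and 1 crossed 2-fold. The one was DAS1 with H2O2, at -0.995 after centring on the median. Yet 54 of the 135 fell outside the counting interval of the main ratio, and 81 stayed inside. The 81 include all ratios under a changed minimum, which filters genes and cannot alter a ratio. Those ratios stayed inside, with the same sign and the same side of 2-fold, by construction. Because 54 fell outside, the intervals leave out the uncertainty from scaling and other settings. The alternatives were pseudocounts of 0.1 and 10 FPKM, no minimum, a minimum of 50 FPKM (which leaves out FBA1-2), TPM and centring. Another scaled every library without the 45 genes that were among the 20 highest of any library. The authors' normalized columns were a further alternative, chosen after seeing the data. Of 52 alternative member counts, 47 stayed within 1.5 times. The other 5 came from a 4-fold threshold, stricter by construction. It gave 0 members higher and 1 lower with H2O2, where 129 and 342 of 4964 genes were higher and lower. For hmt-deficient over untreated it gave 0 members higher, where 166 of 4992 genes were higher. For hmt-deficient over H2O2-treated it gave 1 member higher and 0 lower, where 275 and 45 of 4966 genes were higher and lower. Over all genes, rescaling to TPM moved the median log2 ratio of hmt-deficient over untreated to 0.05, against -0.07 with FPKM, and that of hmt-deficient over H2O2-treated to 0.53, against 0.34. Depth limits FBA1-2 most, with about 285 fragments with H2O2, 886 in the hmt-deficient library and 687 untreated. No paired analysis was possible because each group holds 1 library.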
